A study of Mus musculus with 6 samples.

Results

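The genes described here are NRF2, its inhibitor KEAP1 and 8 established NRF2 targets, 10 genes in all of the 19642 distinct gene symbols in an RNA-Seq table of mouse primary mesangial cells. They were chosen by name (Nfe2l2, Keap1, Hmox1, Nqo1, Gclc, Gclm, Txnrd1, Srxn1, Gsr and Osgin1), and each symbol had exactly 1 row. Mesangial cells are smooth muscle-like cells that hold the glomerular capillaries of the kidney together. All cultures were primary cells at passages 3 to 6 in medium with 25.5 mM glucose and 20% serum, so the Control cells were also grown in high glucose. The 3 TGF-β1 libraries came from cells given TGF-β1 at 10 ng/ml for 72 h, and the 3 Control libraries from the control cells of the same study. Mouse strain and age, and whether the triplicates were separate cultures, are not given in the sources used here, so p-values measure only the spread between these libraries, which may be technical.

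NRF2, encoded by Nfe2l2, is the transcription factor that drives the antioxidant and detoxification program of most cells. KEAP1 holds NRF2 in the cytoplasm and passes it to a cullin 3 ubiquitin ligase for degradation, and oxidants or electrophiles that modify KEAP1 let NRF2 reach the nucleus. There it pairs with a small MAF protein on antioxidant response elements of genes for glutathione, thioredoxin, quinone and haem metabolism. Much of this control acts on the NRF2 protein, which RNA-Seq does not measure. In the kidney the pathway is known for limiting oxidative injury in diabetes and fibrosis.

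The libraries held 10.1 to 11.1 M fragments, as recovered from the smallest steps in the FPKM values. FPKM scales fragments to transcript length and library size, so levels of different genes can be compared where that length is known. Changes were tested with limma on log2(FPKM + 1) over the 11898 rows whose FPKM averaged 1 or more, and an adjusted p under 0.05 was called. Of these rows 48.1% were called, 24.5% up and 23.6% down, with a median change of -0.02 on the log2 scale, and groups did not overlap in 59.4% (29.9% up and 29.5% down). This near-even split of 2911 rows up and 2810 down depended on the scaling. When libraries were rescaled to the sum of all rows below the 99th percentile, which moved the median of all rows to -0.15, 2183 rows were up and 3684 down. The mesangial label was checked against 10 markers. Those with the highest levels moved in opposed directions. Acta2 (smooth muscle actin) rose from 912 to 1091 FPKM in Control to 3587 to 4268 FPKM with TGF-β1, Pdgfrb fell from 32.0 to 41.1 to 28.4 to 29.9 FPKM, and Ptn fell from 32.6 to 38.1 to 0.662 to 1.83 FPKM. Itga8, Thy1 and Agtr1a were at or near 0 in every library (at most 0.180 FPKM) and Des was at most 0.5505 FPKM. Of markers of other cells, endothelial genes summed to at most 1.145 FPKM in any library. Tubular epithelial markers summed to 120.1 to 152.5 FPKM in Control and 30.2 to 34.9 FPKM with TGF-β1, mostly Pax8 with Aqp1 in Control, and macrophage markers to 87.0 to 114 and 9.03 to 11.3 FPKM, mostly Cd14. Within the tubular list Krt18, Krt19, Cubn and Slc12a1, all at most 1.81 FPKM, were called up in the fit without a filter. Podocyte markers summed to 32.3 to 38.0 FPKM in Control, mostly Cdkn1c and Synpo, and to 14.1 to 14.9 FPKM with TGF-β1, mostly Synpo and Wt1. Listed at 0 in at least 1 library were 5 of the 11 tubular markers in the table (Cdh1, Krt8, Krt19, Aqp2 and Slc12a3), 3 of 6 macrophage markers (Ptprc, Itgam and Lyz2) and 4 of 6 endothelial markers (Pecam1, Cdh5, Kdr and Tek). The part of these shifts in the results below was not tested, and in bulk RNA fewer cells of a type cannot be told apart from less RNA per cell.

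The promoters of the genes are shown first, since NRF2 acts on its targets through response elements in DNA. RefSeq windows from 250 bases before to 50 bases after the gene start (build GRCm38.p6, 300 bases each) were matched for 7 of the 10 genes, namely Nfe2l2, Keap1, Gclm, Nqo1, Osgin1, Srxn1 and Txnrd1, the last with several start sites. Gclc, Gsr and Hmox1 had no entry. The core of the antioxidant response element was searched on both strands as TGACNNNGC and, more loosely, as TGANNNNGC. The AP-1 motif TGANTCA, which can overlap the element, was searched too. It stood in 2 of the 7 genes, Osgin1 and Srxn1, and in 7.81% of all 32851 windows. The stricter core was found in 4 of the 7 genes, which is 4 of their 9 windows, and in 12.4% of all 32851 windows. The loose core was found in 6 of the 7, all but Nqo1, which is 7 of the 9 windows, and in 41.3% of all windows. A motif match is a description of these letters and not a binding site. Sequence outside the windows was not searched, so a missing match, as for Nqo1, does not show that a gene lacks the element. The windows below hold each strict match, and the loose matches of Srxn1 and Osgin1 that overlap TGANTCA. Capitals mark the core, and the sequences run 5′ to 3′ on the strand of the gene, so a core in reverse orientation reads GCNNNGTCA or GCNNNNTCA.
Nfe2l2 (chr2:75704887-75704911, minus strand): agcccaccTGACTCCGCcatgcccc
Gclm (chr3:122245415-122245439, plus strand): tcccgggcGCACCGTCAactctcac
Txnrd1 (chr10:82859106-82859130, plus strand): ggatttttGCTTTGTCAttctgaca
Srxn1, strict core (chr2:152105544-152105568, plus strand): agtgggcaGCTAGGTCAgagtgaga
Srxn1, loose core over an AP-1 motif (chr2:152105471-152105495, plus strand): attcacccTGAGTCAGCggccgggc
Osgin1, loose core over an AP-1 motif (chr8:119437040-119437064, plus strand): gggcccctGCTGACTCAcgcttatg
The Osgin1 match began 99 bases before the gene start and the Srxn1 match over the AP-1 motif 45 bases before it. Srxn1 was the only member with more than 1 loose match in a single window.

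The NRF2 genes did not move as a group with TGF-β1. Gsr, Hmox1 and Txnrd1 were upregulated, Gclc, Keap1 and Osgin1 were downregulated, and Nfe2l2, Gclm and Srxn1 were not called. Nqo1 was near the limit of detection in both groups. Of the 10 genes, 9 passed the filter, 3 were called up and 3 down, which is 66.7% of the 9 against 48.1% of all tested rows. Groups did not overlap in 8 of the 9, all but Srxn1, against 59.4% of all tested rows. The changes ran from -1.19 for Gclc to 1.91 for Gsr on the log2(FPKM + 1) scale. The 9 genes had a median change of 0.29.

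**Figure D1:**
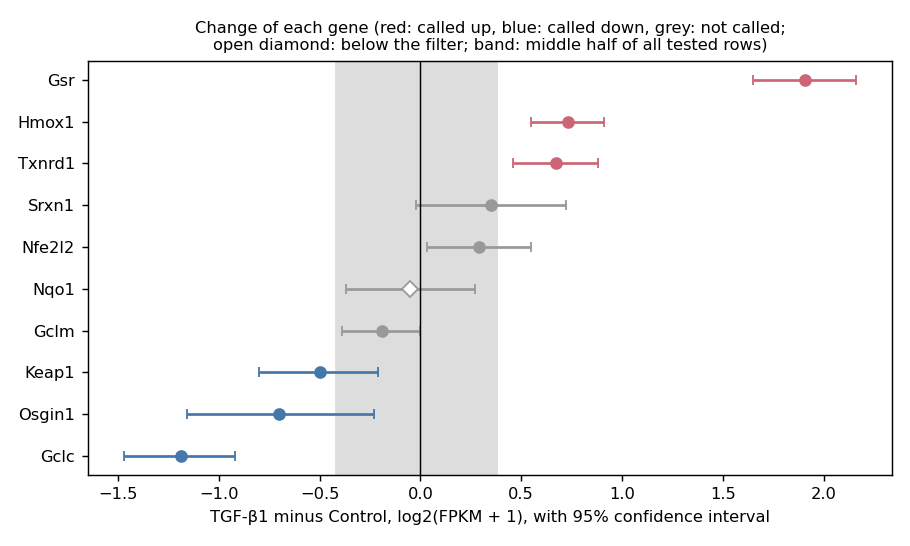
Change of each of the 10 genes between TGF-β1 and Control on the log2(FPKM + 1) scale (horizontal axis), with the 95% confidence interval from limma on 3 libraries per group, and a grey band between the quartiles of all tested rows (-0.42 to 0.38). Gsr lies at 1.91, Hmox1 and Txnrd1 at 0.73 and 0.67, and Keap1, Osgin1 and Gclc at -0.50, -0.70 and -1.19, while the interval of Nqo1, shown as an open diamond because it was below the filter, spans 0.

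Of the regulators, Nfe2l2 (mm9 chromosome 2, 75513570 to 75542698, minus strand) had levels of 47.9, 40.4 and 47.2 FPKM in Control, and of 55.6, 60.9 and 50 FPKM with TGF-β1. Every TGF-β1 library was above every Control library, by as little as 50 against 47.9 FPKM. The difference was 0.29 on the log2 scale (95% CI 0.03 to 0.55, SE 0.109) and was not called (limma adjusted p 0.0684, unadjusted p 0.0352). It was 0.14 under the rescaling to the sum below the 99th percentile and 0.15 within replicates 1 and 3 of both groups. A U6 snRNA is annotated inside the gene on the same strand.

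Keap1 (chromosome 9, 21034174 to 21043776, minus strand), which encodes the inhibitor of NRF2, was at 14.6, 12.1 and 16.1 FPKM in Control and at 9.78, 8.85 and 10.51 FPKM with TGF-β1. The groups did not overlap, and the TGF-β1 mean of 9.72 ± 0.832 FPKM (SD, n = 3) was 1.47-fold below the Control mean of 14.3 ± 1.99 FPKM. The change was -0.50 (SE 0.123, limma adjusted p 0.0161). Without Control replicate 1 the adjusted p was 0.0506. The lincRNA Gm16754 overlaps Keap1 on the opposite strand, and whether counting used the strand is not stated.

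Set against each other within a library, where any scaling between libraries cancels, the Nfe2l2 level was 3.28, 3.33 and 2.94 times that of Keap1 in Control and 5.69, 6.87 and 4.76 times with TGF-β1. The ratio was thus higher in every TGF-β1 library, by 1.80-fold on average (log2 difference 0.84). By a two-sided exact permutation test p was 0.1 (n = 3 per group), the smallest value that 3 against 3 allows. The 3 ratios tested here all reached that value, and their Benjamini-Hochberg adjusted value was also 0.1.

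**Figure D2:**
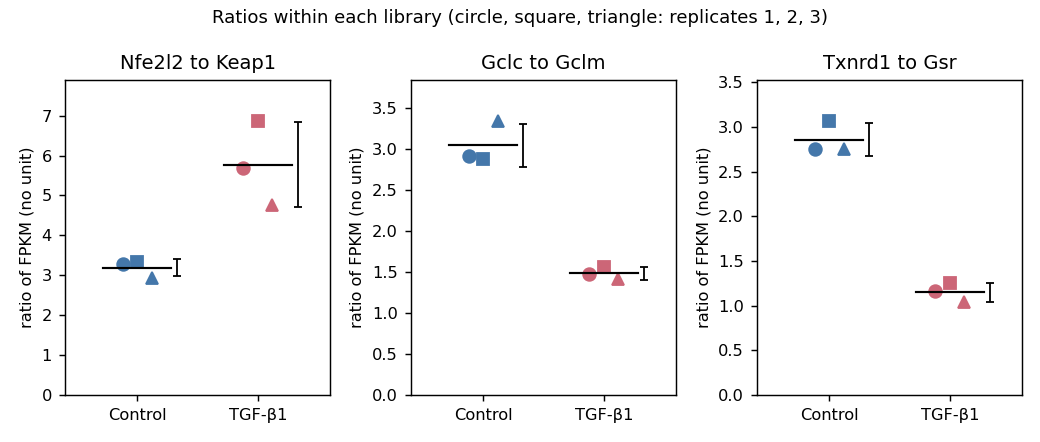
Ratio of the FPKM values of paired genes within each library (vertical axes, from 0, no unit), with Control in blue and TGF-β1 in red, a line at the mean and a bar of 1 SD (n = 3). Nfe2l2 to Keap1 was 2.94 to 3.33 in Control and 4.76 to 6.87 with TGF-β1, Gclc to Gclm was 2.87 to 3.34 and 1.41 to 1.56, and Txnrd1 to Gsr was 2.75 to 3.07 and 1.04 to 1.25.

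Glutathione genes of the set went in opposite directions. Gclc (chromosome 9, 77602342 to 77642292, plus strand) encodes the catalytic subunit of glutamate-cysteine ligase, the rate-limiting enzyme of glutathione synthesis. It was at 32.3, 30.0 and 37.2 FPKM in Control and at 13.1, 15.6 and 13.1 FPKM with TGF-β1. All 3 TGF-β1 libraries were well below every Control library. As Gclc has 1 annotated transcript, its values translate to about 1068 to 1293 fragments in Control and 458 to 508 with TGF-β1. The fall was 2.38-fold, from 33.2 ± 3.69 to 13.9 ± 1.42 FPKM (log2 change -1.19, SE 0.114, limma adjusted p 0.000382).

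Gclm (chromosome 3, 121948475 to 121972902, plus strand) encodes the modifier subunit, which raises the affinity of the ligase for its substrate. Its values were 11.1, 10.4 and 11.1 FPKM in Control and 8.90, 9.98 and 9.32 FPKM with TGF-β1. The TGF-β1 libraries were all lower, but the nearest pair of libraries was 10.4 against 9.98 FPKM. The difference of -0.19 (95% CI -0.39 to 0.00) was not called (limma adjusted p 0.0888). It was called, at -0.34 with a limma adjusted p of 0.0167, under the rescaling to the sum below the 99th percentile. The lincRNA Gm17494 overlaps Gclm on the opposite strand.

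Set against each other within a library, Gclc was 2.91, 2.87 and 3.34 times as abundant as Gclm in Control and 1.47, 1.56 and 1.41 times with TGF-β1. The ratio was 2.05-fold lower with treatment (log2 difference -1.04, two-sided exact permutation p = 0.1, n = 3 per group). Without any 1 library the log2 difference was -1.08 to -0.97. Its direction could not change, since the groups did not overlap.

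Gsr (chromosome 8, 34762995 to 34808635, plus strand) encodes glutathione reductase, which returns oxidised glutathione to its reduced form with NADPH. It changed most among the 10 genes, from 11.2, 9.58 and 9.68 FPKM in Control to 42.8, 36.3 and 43.3 FPKM with TGF-β1. The lowest TGF-β1 library was far above the highest Control library. The rise was 4.02-fold, from 10.2 ± 0.892 to 40.8 ± 3.95 FPKM (log2 change 1.91, 95% CI 1.65 to 2.16, limma adjusted p 5.42e-05), and ranked 468 of the 11898 tested rows by size of change. The row names a processed transcript of 347 nt, whereas the longest annotated Gsr transcript has 2673 nt. If the value belonged to the short transcript alone it would rest on 15.4 to 18.3 fragments in Control and 54.3 to 69.5 with TGF-β1, and if to the longest, on 258 to 306 and 908 to 1162. A snoRNA, SNORA48, lies in the gene on the same strand.

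Thioredoxin genes came next. Txnrd1 (chromosome 10, 82296696 to 82360469, plus strand) encodes the cytosolic thioredoxin reductase, a selenoprotein that uses NADPH to reduce thioredoxin. It was at 30.8, 29.5 and 26.6 FPKM in Control and at 49.7, 45.3 and 44.9 FPKM with TGF-β1, with a wide gap between the groups. The rise was 1.61-fold, from 28.95 ± 2.16 to 46.6 ± 2.67 FPKM (log2 change 0.67, SE 0.088, limma adjusted p 0.0014). A strict core of the response element stood in the window of 1 of its start sites, as printed above.

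Srxn1 (chromosome 2, 151931252 to 151937112, plus strand) encodes sulfiredoxin, which repairs overoxidised peroxiredoxins. Its values were 16.7, 14.6 and 13.05 FPKM in Control and 17.6, 16.6 and 23.5 FPKM with TGF-β1. The groups overlapped, since TGF-β1 replicate 2 lay just below Control replicate 1, and TGF-β1 replicate 3 stood above the rest. The difference of 0.35 (95% CI -0.02 to 0.72) was not called (limma adjusted p 0.107). It was 0.21 without TGF-β1 replicate 3 and 0.20 under the rescaling to the sum below the 99th percentile. Its row also names a short processed transcript, of 375 nt.

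In Control the FPKM of Txnrd1 was 2.76, 3.07 and 2.75 times that of Gsr, the other NADPH-dependent reductase. With TGF-β1 it was 1.16, 1.25 and 1.04 times. The length behind the Gsr value is not settled, so the size of this ratio is uncertain. The ratio was lower in every TGF-β1 library than in any Control library, by 2.49-fold on average (log2 difference -1.32, two-sided exact permutation p = 0.1, n = 3 per group). Both genes rose, so the ratio shows an unequal rise.

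Hmox1 (chromosome 8, 77617490 to 77624495, plus strand) encodes haem oxygenase 1, which splits haem into iron, carbon monoxide and biliverdin. It was at 65.4, 62.6 and 70.2 FPKM in Control and at 112, 110.2 and 108 FPKM with TGF-β1. Its groups were far apart and tight within. It rose 1.67-fold, from 66.1 ± 3.85 to 110.2 ± 2.22 FPKM (log2 change 0.73, SE 0.075, limma adjusted p 0.000513), and no other gene overlaps it.

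Osgin1 (chromosome 8, 121958024 to 121970156, plus strand) encodes an oxidative stress-induced growth inhibitor. It was the lowest of the genes that passed the filter, at 4.70, 5.63 and 5.60 FPKM in Control and 3.401, 1.92 and 3.58 FPKM with TGF-β1. The groups did not overlap and TGF-β1 replicate 2 was well below the others. The change was -0.70 (SE 0.194, limma adjusted p 0.0262), a fall of 1.79-fold from 5.31 ± 0.527 to 2.97 ± 0.913 FPKM. Its row names a transcript of 747 nt, on which the values would rest on 28.5 to 34.1 fragments in Control and 10.6 to 21.2 with TGF-β1. On the longest transcript, of 2302 nt, they would rest on 109 to 131 and 40.8 to 81.5. The call depended on single libraries. The limma adjusted p was 0.0765 without Control replicate 2 and 0.0687 without Control replicate 3, and within replicates 1 and 3 of both groups the change was -0.45 at 0.0625.

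Nqo1 (chromosome 8, 109912125 to 109927106, minus strand) encodes NAD(P)H quinone dehydrogenase 1, perhaps the most widely used marker of NRF2 activity. It was barely detected. Its values were 0.1998, 0.401 and 0.343 FPKM in Control and 0.0673, 0.292 and 0.477 FPKM with TGF-β1, which correspond to 2.99, 5.99 and 5 fragments and to 1, 4 and 7 fragments. The groups overlapped fully. Without the filter on low values the difference was -0.05 (95% CI -0.37 to 0.27, limma adjusted p 0.806), beside 30.5% of all 19730 rows called in that fit and 44.1% whose groups did not overlap, 20.5% up.

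**Figure D3:**
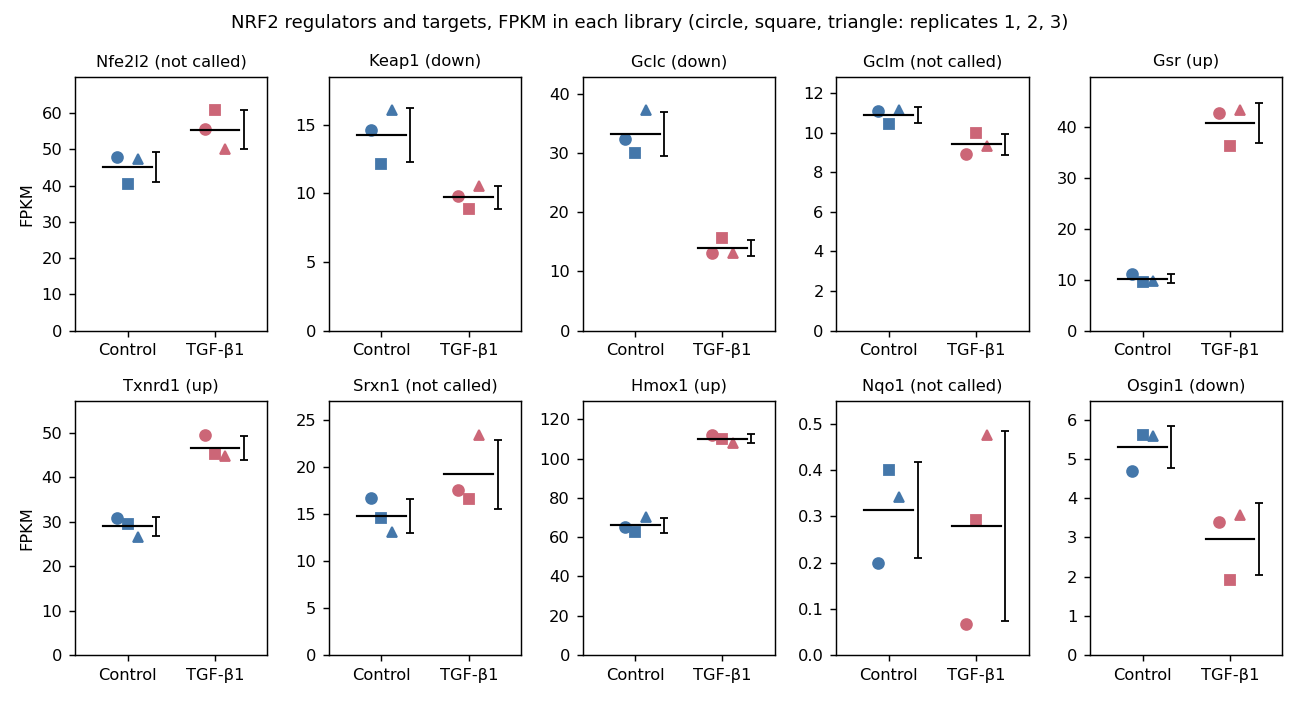
FPKM of each of the 10 genes in each library (vertical axes, each from 0 and on its own scale), with Control in blue, TGF-β1 in red, replicates 1, 2 and 3 as circle, square and triangle, a line at the mean and a bar of 1 SD (n = 3). Gsr separates the groups most, at 9.58 to 11.2 against 36.3 to 43.3 FPKM, and the values of Srxn1 and Nqo1 overlap.

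The order of the levels changed with the treatment. In Control it ran Hmox1, Nfe2l2, Gclc, Txnrd1, Srxn1, Keap1, Gclm, Gsr, Osgin1 and Nqo1, from 66.1 to 0.314 FPKM on average. The libraries of Gclc and Txnrd1, of Srxn1 and Keap1, and of Gclm and Gsr overlapped, so those neighbours were not separated. With TGF-β1 the order was Hmox1, Nfe2l2, Txnrd1, Gsr, Srxn1, Gclc, Keap1, Gclm, Osgin1 and Nqo1, from 110.2 to 0.279 FPKM. Only Keap1 and Gclm overlapped there. Gsr moved from position 8 to 4 and Gclc from 3 to 6. Among all tested rows, Gsr moved from percentile 45.0 to 79.3 of level and Gclc from 76.4 to 54.3, while Hmox1 was at 87.6 and 91.5. The rows of Gsr, Srxn1 and Osgin1 name transcripts much shorter than the longest of the gene. The length behind their values is not settled, so their places and the percentiles of Gsr are uncertain. Keap1, Nfe2l2, Hmox1, Gclm and Txnrd1 also have several annotated transcripts, so the same question bears on their places.

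Genes of functions around NRF2 were taken from 6 lists, whose members need not be NRF2 targets. Whether they answer to NRF2 was not tested. The lists held 115 genes, of which 106 were matched and 93 passed the filter. Of these, 31 were called up, 25 down and 37 neither. The called share was 60.2%, against 48.1% of all tested rows, and the median change was 0.08. Under the rescaling to the sum below the 99th percentile 21 were up and 32 down. All 11898 tested rows shifted in the same direction under it, to 2183 up and 3684 down. As with the 10 genes, no list moved in a single direction.

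**Figure D4:**
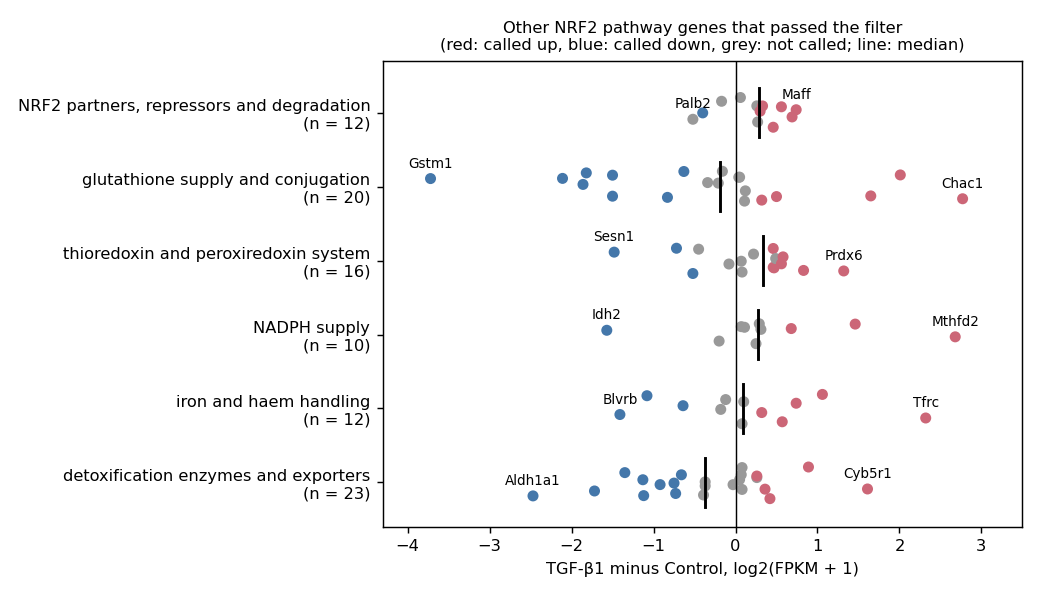
Change of the genes of 6 lists of related function that passed the filter, TGF-β1 minus Control on the log2(FPKM + 1) scale (horizontal axis). Each point is 1 gene, coloured by call, with a black line at the median of each list. List medians lie between -0.37 (detoxification) and 0.34 (thioredoxin), with Gstm1 at -3.72 and Chac1 at 2.77 at the ends.

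Partners and repressors of NRF2 had 12 tested genes, with a median of 0.28. Of these 6 were called up and 1 down, beside 24.5% and 23.6% of all tested rows. The small MAF genes Maff and Mafk, whose proteins pair with NRF2 on DNA, rose from 6.21 ± 0.880 to 11.03 ± 0.646 FPKM (log2 change 0.74) and from 7.45 ± 1.43 to 12.6 ± 2.11 FPKM (0.69). The limma adjusted p-values were 0.00271 and 0.0149. The NRF2 relative Nfe2l1 was also higher with TGF-β1, at 81.2 ± 6.78 against 54.95 ± 5.67 FPKM (log2 change 0.56, limma adjusted p 0.00678). Sqstm1, which encodes the KEAP1-binding autophagy receptor p62, had the highest level in the list, at 840 ± 55.8 and 1008 ± 138 FPKM, and was not called (limma adjusted p 0.146). Chosen after their values were seen, Cul3, the ligase scaffold that KEAP1 recruits, and Bach1, a repressor that competes at response elements, were called at limma adjusted p-values of 0.0497 and 0.0444. These calls were lost in 14 and 10 of 17 alternatives.

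Genes of glutathione supply and conjugation were split, with 5 of 20 tested genes up and 8 down, and a median of -0.18. Of all tested rows 24.5% were up and 23.6% down. The transferases Gstm1 and Mgst1 fell, Gstm1 from 221.5 ± 27.7 to 15.85 ± 1.80 FPKM, which is 14.0-fold (log2 change -3.72, limma adjusted p 1.1e-05). Mgst1, a microsomal transferase, fell from 13.5 ± 1.997 to 2.35 ± 0.3505 FPKM (-2.11). Chac1, which breaks glutathione down, rose from 2.06 ± 1.02 to 19.1 ± 0.491 FPKM, 9.27-fold. Gstp1, the highest gene of the list by its mean over all 6 libraries, though below Gstm1 in Control and below Gsto1 with TGF-β1, was at 183 ± 32.3 and 186 ± 12.7 FPKM (limma adjusted p 0.855). Of genes named after their values were seen, Gsta4 and Gstm2 fell 4.01-fold and 3.02-fold, while Gsto1, an omega-class transferase, rose 4.05-fold. Slc7a11, the cystine carrier that is a common NRF2 readout, was at 3.18 ± 0.505 and 2.29 ± 0.174 FPKM and was not called (limma adjusted p 0.0679). Its groups did not overlap, however. It was called down under the rescaling to the sum below the 99th percentile and without Control replicate 3. Members of the Gstm, Gsta and Gstp families are similar in sequence, and reads could be divided between them by the counting.

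In the thioredoxin and peroxiredoxin list 7 of 16 tested genes were up and 3 down, beside 24.5% and 23.6% of all tested rows. The list median was 0.34. Prdx6 and Prdx5, which encode peroxiredoxins, rose from 95.9 ± 8.08 to 240.5 ± 24.9 FPKM (log2 change 1.32) and from 152 ± 21.8 to 269 ± 10.7 FPKM (0.83). Prdx1, the most abundant gene of the list, rose 1.37-fold from 537 ± 62.1 FPKM to 739 ± 35.9 (log2 change 0.46, limma adjusted p 0.0154), a call that was lost within replicates 1 and 3 (0.0861) and after rescaling to the sum below the 99th percentile (0.0595). Sesn1, a sestrin, fell 3.00-fold, from 27.4 ± 3.07 to 9.12 ± 0.579 FPKM. The sestrins Sesn2 and Sesn3, named after their values were seen, rose 1.4-fold and 1.54-fold (limma adjusted p 0.0076 and 0.00733).

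Among genes of NADPH supply, the cofactor that Gsr, Txnrd1 and Nqo1 use, 3 of 10 were up and 1 down. The shares of all tested rows were 24.5% up and 23.6% down, and the list median was 0.27. Mthfd2, a mitochondrial folate enzyme, rose 7.25-fold, from 5.87 ± 1.14 to 42.5 ± 1.35 FPKM. Me1, malic enzyme 1, rose 2.87-fold to a mean of 42.2 ± 4.201 FPKM (log2 change 1.46, limma adjusted p 0.000126). Idh2, the mitochondrial isocitrate dehydrogenase, fell from 181 ± 29.1 to 59.9 ± 1.26 FPKM. Tkt of the pentose phosphate pathway, the highest gene over all 6 libraries though below Idh2 in Control, was at 167 ± 23.9 and 198 ± 16.02 FPKM and was not called (limma adjusted p 0.150).

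The iron and haem list holds genes that act around the products of Hmox1, with a median of 0.09. Here 5 of 12 genes were up and 3 down, beside 24.5% and 23.6% of all tested rows. Tfrc, the transferrin receptor that brings iron in, rose from 2.24 ± 0.355 to 15.2 ± 1.26 FPKM (log2 change 2.32). Fth1, the ferritin heavy chain that stores iron, fell 2.12-fold from 2041 ± 351 FPKM to 963 ± 126 (log2 change -1.08, limma adjusted p 0.00293), and Blvrb, biliverdin reductase B, fell 2.81-fold. Ftl1, the ferritin light chain, varied widely, at 1707 to 2882 FPKM in Control and 1177 to 3080 FPKM with TGF-β1, and was not called, with a limma adjusted p of 0.890. Ferritin genes have near-identical copies, so their values are uncertain. Blvra, the other biliverdin reductase gene of the list, named after its values were seen, rose from 10.6 ± 2.39 to 16.1 ± 0.607 FPKM, with a limma adjusted p of 0.0219.

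Detoxification enzymes and exporters had 5 of 23 tested genes up and 9 down, beside 24.5% and 23.6% of all tested rows. The list median was -0.37. Aldh1a1, a retinal dehydrogenase, fell 8.40-fold, from 13.6 ± 2.38 to 1.62 ± 0.242 FPKM. Abcc3, an exporter of conjugates, fell from 1.505 to 3.91 FPKM in the Control libraries to at most 0.25 FPKM with TGF-β1 (log2 change -1.72, limma adjusted p 0.00264). It passed the filter only through its Control level, and its change was -3.91 with a pseudocount of 0.1. Cyb5r1, a cytochrome b5 reductase, rose 3.08-fold, from 32.0 ± 6.71 to 98.6 ± 4.07 FPKM. Akr1a1 had the highest level, at 1026 ± 242 and 1061 ± 101 FPKM, and was not called (limma adjusted p 0.782).

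**Figure D5:**
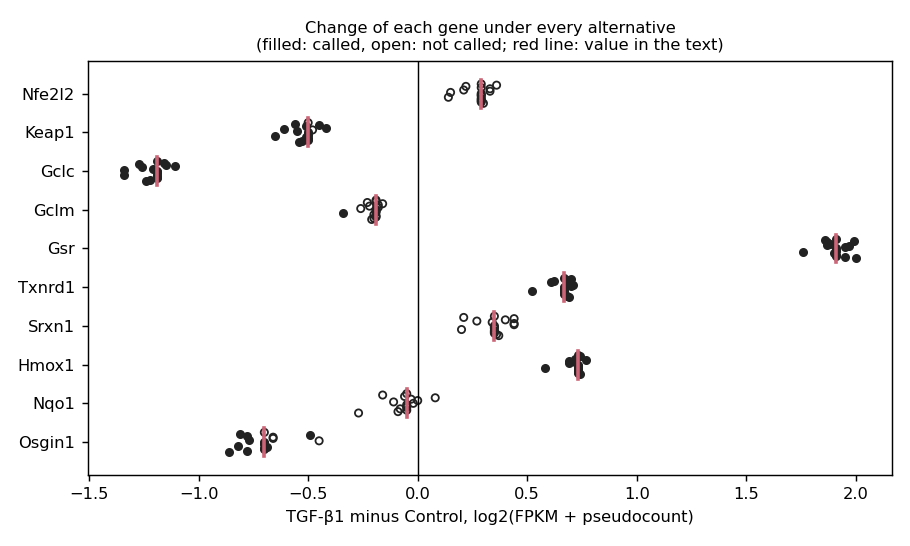
Change of each of the 10 genes (horizontal axis, TGF-β1 minus Control, log2 scale) under each alternative processing choice, filled where called and open where not, with a red line at the value in the text. Hmox1, Txnrd1, Gsr and Gclc were called under every alternative tried, at 0.58 to 0.77, 0.52 to 0.71, at least 1.76 and -1.34 to -1.11, and Keap1 and Osgin1 have open points.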

How the data were processed

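RNA was sequenced from 3 Control and 3 TGF-β1 samples. Per the study's methods, the authors filtered the reads on quality, aligned them to mm9 (TopHat) and derived FPKM values by Cufflinks, and the submitters' processing notes name TopHat2 2.0.11. The deposited values are FPKM, 1 column per library, and no scaling between libraries is stated. The authors tested counts with DESeq. Counts were not used here.

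Each of the 19730 rows names a transcript. In 99.6% of the 12221 rows of genes with several transcripts (annotation GENCODE M1, mm9) it was the transcript with the lowest start coordinate. It is not stated whether the value is that of the gene. Low values fell on whole fragments (within 0.05) of the named transcript in 27.8% and of the longest in 32.8% of 758 values where the named one was much shorter, which does not settle it.

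Depth came from genes with 1 transcript and FPKM under 0.6, assuming fragments of 200 nt. Of these values 96.7 to 99.7% were whole. No count model was run.

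limma 3.58.1 (R 4.3.3; lmFit, eBayes with trend) tested log2(FPKM + 1) in rows whose FPKM averaged 1 or more, two-sided, with Benjamini-Hochberg adjustment over 11898 rows. The + 1 understates changes of low genes. The test was checked on simulated data with far fewer changed rows than were called here and no shift in scaling. That check therefore does not cover the setting of these data. Ratios used scipy 1.17.1. The 10 genes, the lists and the ratios were chosen with earlier results of these data known. Of each list the 3 largest called changes and the highest gene were named, others only as stated. The values of 1 gene of the marker lists are not reported here.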

Additional observations from a re-analysis of the deposited data

How the results depend on the processing

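Calls and changes were recomputed under 17 alternatives (pseudocount, filter, scaling, variance model, replicate block, threshold, single libraries left out, replicates 1 and 3 alone). At an adjusted p under 0.01 instead of 0.05, 3672 rows were called, 1945 up and 1727 down. Of the 10 genes 4 were called, Gsr, Hmox1 and Txnrd1 up and Gclc down. Of the list genes 20 were up and 19 down. Fewer calls follow by construction from a stricter threshold. Of the 10 genes, 5 to 6 were called in the fits that left out 1 library, and 4451 to 5422 rows. The 3 ratios kept their direction without any 1 library, which was fixed in advance because their groups did not overlap. Rescaling to the sum of rows below the 99th percentile called 7 of the 9 genes that passed the filter, 3 up and 4 down, with Gclm added. It called 5867 of all 11898 rows, 2183 up and 3684 down.

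Both groups carry replicate numbers 1 to 3. Deviations of same-numbered libraries from their group means correlated across rows at 0.092, 0.232 and 0.085. Those of other-numbered libraries correlated at -0.194 to 0.117, positive only for Control replicate 1 with TGF-β1 replicate 3. Whether same-numbered libraries shared a batch was not tested. The labels name no pairs, so the main fit used none. With the replicate block 5391 rows and the same 6 of the 10 genes were called, and the ratios Nfe2l2 to Keap1, Gclc to Gclm and Txnrd1 to Gsr differed by 0.84, -1.04 and -1.32 (exact p = 0.25, the smallest that 3 pairs allow).

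Depth limits Nqo1, at 1 to 7 fragments per library. Whether a row is a gene or a transcript limits most Gsr, Srxn1 and Osgin1, whose rows name short transcripts. It also bears on Keap1, whose row names 3434 nt where the longest transcript has 4470 nt. Nfe2l2, Hmox1, Gclm and Txnrd1 have several transcripts too, though their rows name the longest. The size of the ratios is therefore uncertain as well.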
